A study of Mus musculus with 2 samples.

Results

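The cytosolic ribosomal protein genes are the genes whose symbols begin with Rpl or Rps followed by a digit, together with Rpsa and Rplp0 to Rplp2, leaving out the S6 kinase genes and features named as pseudogenes. They numbered 86 of the 32285 genes in the deposited count matrix, and comprised 31 genes of small subunit proteins, 46 genes of large subunit proteins and 9 paralogs or related genes. One of the 9, Rps19bp1, encodes a protein that binds the small subunit protein Rps19 and is not a ribosomal protein itself. UMIs (unique molecular identifiers, each standing for a captured RNA molecule) were found for 85 of the 86 genes.

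The cells were wild-type mouse CD8+ T cells isolated from spleen, which recognise peptides held by class I MHC molecules. They were cultured for 30 h on plates coated with biotinylated monomers of the class I molecule H-2Db loaded with the peptide M9C, at 0.2, 2 or 20 pmol, or with the peptide L6F, at 80 or 20 pmol, and a sixth culture was rested. Each condition was 1 culture, stained with its own hashtag antibody, and all 6 were pooled in 1 droplet lane, so no condition had a replicate. Intervals below are 95% intervals that cover counting error only, and no p-value was computed.

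Each ribosome holds a single copy of nearly every ribosomal protein, and the proteins of the small subunit surround the decoding site while those of the large subunit surround the site of peptide bond formation. Transcripts of these genes are among the most abundant in lymphocytes, and most begin with a pyrimidine tract at the cap (a 5′ terminal oligopyrimidine, or TOP, sequence), through which their translation follows the activity of the kinase mTOR. Naive T cells keep these transcripts while translating little, and they enlarge and build ribosomes after antigen stimulation.

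The start sites of the members that lay lowest and highest relative to rested cells are printed first, to show the letters at both ends of the comparison with rested cells. Each line gives 15 bases before and 15 bases from the start on, 5′ to 3′, from RefSeq's GRCm38.p6 annotation, and capitals mark the longest run of C and T in the printed stretch. The first 4 lines are members whose level was lowest relative to rested cells, the fifth is the Rps27 copy Rps27rt, and the remaining 6 are members whose level was higher than in rested cells.
Rps24 (chr14:24490663-24490692, plus strand): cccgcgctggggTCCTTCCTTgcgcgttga
Rps27 (chr3:90213634-90213663, minus strand): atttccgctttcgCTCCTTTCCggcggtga
Rps7 (chr12:28635939-28635968, minus strand): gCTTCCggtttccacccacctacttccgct
Rps15a (chr7:118116133-118116162, minus strand): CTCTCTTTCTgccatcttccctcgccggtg
Rps27rt (chr9:114982725-114982754, minus strand): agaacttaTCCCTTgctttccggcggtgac
Rpl4 (chr9:64173372-64173401, plus strand): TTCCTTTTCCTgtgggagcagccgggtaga
Rps2 (chr17:24720048-24720077, plus strand): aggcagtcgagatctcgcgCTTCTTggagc
Rpl41 (chr10:128549154-128549183, minus strand): cacacgggccggCTCggaagtgacgacacc
Rpl7l1 (chr17:46782642-46782671, minus strand): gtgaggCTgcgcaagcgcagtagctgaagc
Rps27l (chr9:66946071-66946100, plus strand): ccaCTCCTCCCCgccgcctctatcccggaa
Rps19bp1 (chr15:80264292-80264321, minus strand): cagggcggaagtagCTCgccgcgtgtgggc

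The RefSeq table held a start for 66 of the 86 members, and the first listed start of each gene was taken. These are annotated starts, and where the transcripts began in these cells was not examined. A run of 8 or more C or T bases on the sense strand lay within 25 bases of the start in 30 of the 66 (45.5%), against 19.4% of 27025 promoters. The words CTTTCC or CTTTTC, which can lie inside such runs or in shorter ones, were found there on the sense strand in 14 members (21.2%), against 4.05% of promoters. CCGGAA on either strand, the core word bound by ETS factors, lay in the window from 250 bases before to 50 bases after the start in 33 members (50%), against 15.2% of promoters. Its reverse complement can overlap the first of the words above. The palindrome CACGTG, the E-box bound by Myc proteins, was found in 5 members (7.58%), against 7.24% of promoters. These matches describe the letters of the windows. Among members at 50 CPM or more, the median log2 CPM ratio of 20 pmol M9C over rested cells was -0.33 for the 12 with CTTTCC or CTTTTC near the start, -0.39 for the 50 with neither and -0.43 for the 20 not matched.

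Cells were assigned by their hashtags, which left 11671 of 13439 barcodes. There were 1633, 1760 and 1941 cells at 0.2, 2 and 20 pmol M9C, 2239 and 2515 cells at 80 and 20 pmol L6F, and 1583 rested cells. Stimulated conditions had 11410243 to 16041955 UMIs in all and a median of 6017 to 7017 UMIs per cell, against 1495231 UMIs in all and a median of 846 UMIs per cell in rested cells. Under 500 genes were detected in 1.16% to 3.30% of the cells of a stimulated condition and in 52.3% of rested cells. CD8 T cell markers (Cd3e, Cd3d, Cd8a, Cd8b1, Trac and Cd2) were all detected and summed to 1951 to 2147 CPM (a gene's UMIs scaled to the same total in every condition) in stimulated conditions, against 4128 CPM in rested cells. Cd4 did not exceed 0.0771 CPM in stimulated conditions and was at 0 in rested cells.

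Ribosomal protein genes took a smaller share of the UMIs of stimulated cells than of rested cells, while their mean amount per cell was higher. They made up 25.4% of UMIs at 0.2 pmol M9C, 25.7% at 2 pmol M9C, 25.4% at 20 pmol M9C, 26.0% at 80 pmol L6F and 25.8% at 20 pmol L6F, against 33.5% (33.4 to 33.6) in rested cells. Per cell, they averaged 1773, 1759 and 1699 UMIs at 0.2, 2 and 20 pmol M9C and 1604 and 1645 UMIs at 80 and 20 pmol L6F, against 316 UMIs in rested cells. The amount per cell was therefore 5.07 to 5.61 times that of rested cells, and the UMIs of all other genes together were 7.26 to 8.30 times those of rested cells. Over single cells, the median share ranged from 25.2% to 25.9% among stimulated conditions, against 34.0% in rested cells, and with every cell thinned to 500 UMIs it ranged from 25% to 25.8%, against 34.0%. No cell was left out by the thinning. The middle 90% of rested cells lay between 25.3% and 40.5%, and that of 20 pmol M9C cells between 19.6% and 29.3%, so the cells of the conditions overlapped.

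**Figure D1:**
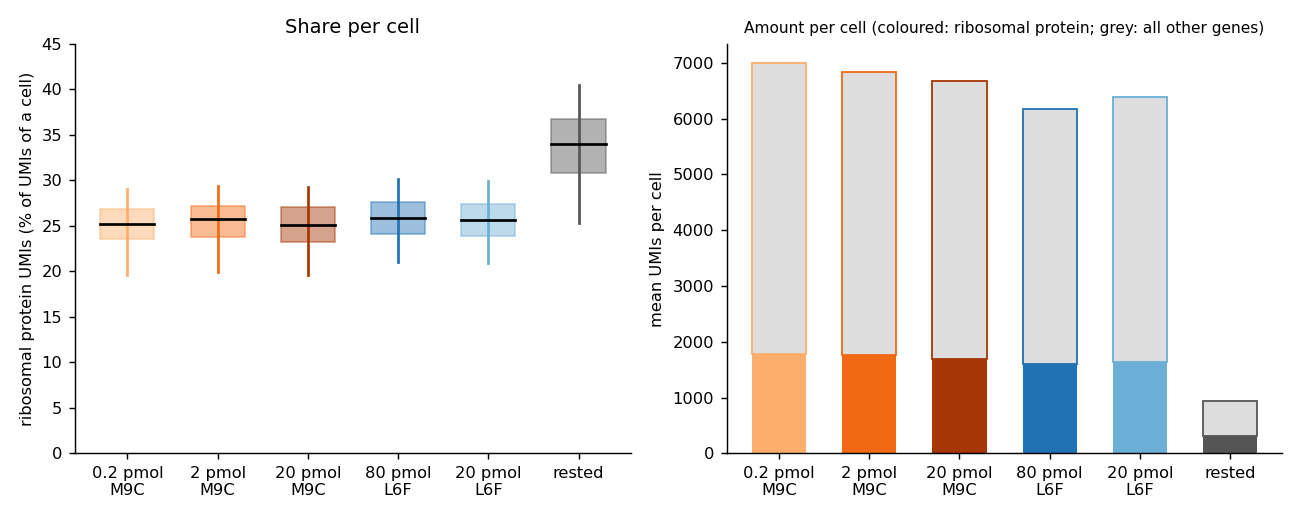
Left, the share of a cell's UMIs that came from ribosomal protein genes (percent) in each condition, with boxes from the first to the third quartile, a black line at the median and thin lines from the 5th to the 95th percentile of cells. Right, the mean UMIs per cell of ribosomal protein genes (coloured) with those of all other genes stacked above them (grey). The 5 stimulated medians lie at 25.2% to 25.9% beside 34.0% in rested cells, while the coloured bars reach 1604 to 1773 UMIs beside 316.

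The difference in share depended on which rested cells were compared. Rested cells were mostly shallow, with 1116 of 1583 between 500 and 1000 UMIs and 418 between 1000 and 2000. The ribosomal protein share of UMIs was 33.1% in the first of these depth bins and 35.9% in the second, 28.8% in the 41 rested cells with 2000 to 4000 UMIs and 25.5% in the 7 with 4000 to 8000. Stimulated cells with 2000 or more UMIs gave 23.9% to 26.2% in every bin and condition. The few stimulated cells with 500 to 1000 UMIs, 35 to 77 per condition, gave 10.7% to 15.6% and had a median mitochondrial share of 17.0% to 30.1%, against 2.35% in rested cells of that depth. When only cells with 1000 or more genes were kept, 47 rested cells remained with a share of 26.6%, and the stimulated conditions lay between 25.4% and 26.0%. The amount per cell and the number of cells are known here only through captured UMIs. Neither the part of depth in the lower share nor the presence of RNA from other cultures in rested barcodes was tested.

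**Figure D2:**
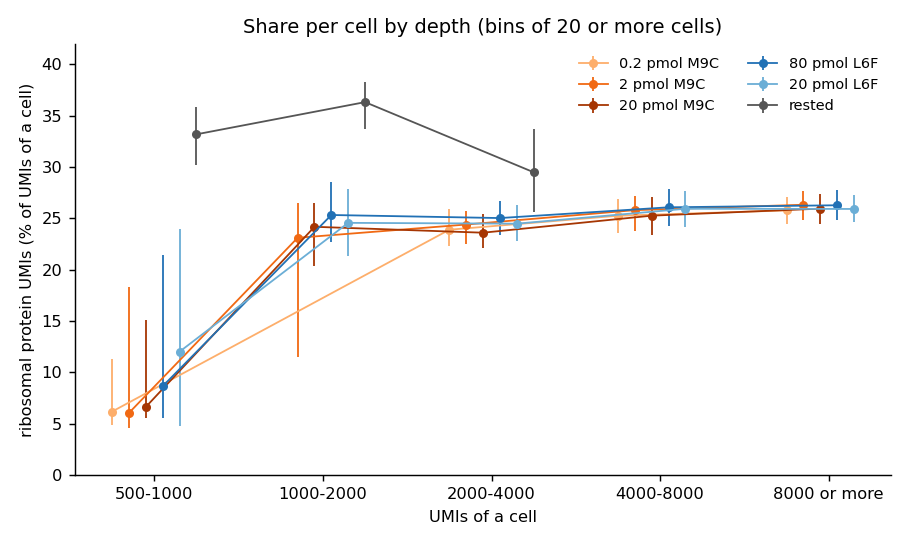
Median share of a cell's UMIs from ribosomal protein genes (percent) in bins of the cell's total UMIs, with bars from the first to the third quartile. Bins with under 20 cells are not drawn, which leaves out 0.2 pmol M9C at 1000 to 2000 UMIs and rested cells above 4000 UMIs. Rested cells lie above every stimulated condition in the 3 bins they share.

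In CPM, markers of some other cell types were higher in rested cells, and the sort before loading was for live cells alone. The 5 gamma-delta T cell markers summed to 59.1 to 114 CPM in stimulated conditions, against 449 CPM in rested cells, of which Trdc made up 381 CPM. The 5 neutrophil markers summed to 0.0832 to 5.11 CPM in stimulated conditions, against 106 CPM in rested cells, with S100a9 and Retnlg at 0 throughout. The 6 macrophage and monocyte markers summed to 2.66 to 26.9 CPM in stimulated conditions, against 94.3 CPM in rested cells, of which Lyz2 made up 89.6 CPM. The 5 erythroid markers summed to 2.53 to 41.5 CPM in stimulated conditions, against 99 CPM in rested cells. The 6 B cell markers summed to 3.04 to 3.58 CPM in stimulated conditions, against 10.0 CPM in rested cells, with Pax5 at 0. In stimulated conditions 3.001% to 7.32% of cells held 3 or more gamma-delta T cell marker UMIs, against 2.91% of rested cells. For neutrophil, macrophage and monocyte, and erythroid markers, such cells made up 0.190%, 0.190% and 0.253% of rested cells. The highest stimulated values were 0.0612%, 0.223% and 0.258%. Rested cells held fewer UMIs each, so 3 marker UMIs are harder to reach. Whether rested cells included more cells of other types was not tested. Malat1, a nuclear RNA, took 0.156% to 0.178% of UMIs in stimulated conditions and 0.859% in rested cells. Without cells holding 3 or more marker UMIs of another type, ribosomal protein genes took 25.4% to 26.0% of UMIs in stimulated conditions, against 33.8% in rested cells. In cells with a Cd8a or Cd8b1 UMI they took 25.4% to 26.0% in stimulated conditions, against 34.1% in the 1128 such rested cells.

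Gene by gene, most members had a lower CPM in stimulated cells. Only members at 50 CPM or more in either condition were compared, which kept 82 and left out Rps27rt, Rpl39l, Rpl3l and Rpl10l, and the 5 comparisons share the same rested cells. The median log2 CPM ratio over rested cells was -0.39 at 0.2 pmol M9C, -0.36 at 2 pmol M9C, -0.38 at 20 pmol M9C, -0.34 at 80 pmol L6F and -0.35 at 20 pmol L6F, beside medians of 0.32 to 0.37 over all genes of that level. With UMIs per cell in place of CPM the direction reversed, with member medians of 2.37 to 2.50 beside 3.03 to 3.26 over all genes. In CPM, 14 members lay above 0 and 68 below in each of the 5 comparisons.

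A member counts as lower or higher here when its CPM was at least 20% lower or at least 25% higher than in the other condition, the same factor in either direction, and the interval excluded equality. Shares of all genes, here and below, are of genes at 50 CPM or more in any condition compared. Against rested cells these were 3429 to 3512 genes. At 0.2 pmol M9C, 48 of 82 members were lower (27.3% of all genes were) and 7 higher (51.3%). At 2 pmol M9C, 46 were lower (27.7%) and 8 higher (50.9%), and at 20 pmol M9C 48 were lower (26.9%) and 7 higher (51.5%). At 80 pmol L6F, 43 were lower (26.4%) and 6 higher (49.5%), and at 20 pmol L6F 43 were lower (26.8%) and 6 higher (49.7%). The members thus held a larger share of lower genes and a smaller share of higher genes than all genes of that level. With cells of 1000 or more genes, in which 47 rested cells remained, 4 to 6 members were lower and the medians lay between -0.076 and -0.025. Those rested cells held 145311 UMIs, against 1495231 in all rested cells, so the intervals are wider. The share of all genes was not computed for them. Past 2-fold, 3, 3, 3, 2 and 2 members were lower at 0.2, 2 and 20 pmol M9C and at 80 and 20 pmol L6F, where 12.5%, 12.7%, 12.3%, 9.71% and 10.8% of all genes were, and 3 were higher in each, where 23.9%, 23.4%, 23.7%, 19.5% and 20.7% were. Counted as UMIs per cell, all 82 were at least 2-fold higher in every stimulated condition, as were 95.2%, 95%, 94.8%, 96.2% and 96.1% of genes at 0.2, 2 and 20 pmol M9C and at 80 and 20 pmol L6F. At the 25% threshold, 97.5%, 97.2%, 97.2%, 98.3% and 98.2% of genes were higher per cell in those conditions and 1.34%, 1.43%, 1.45%, 0.787% and 0.902% lower, with 0 members lower.

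**Figure D3:**
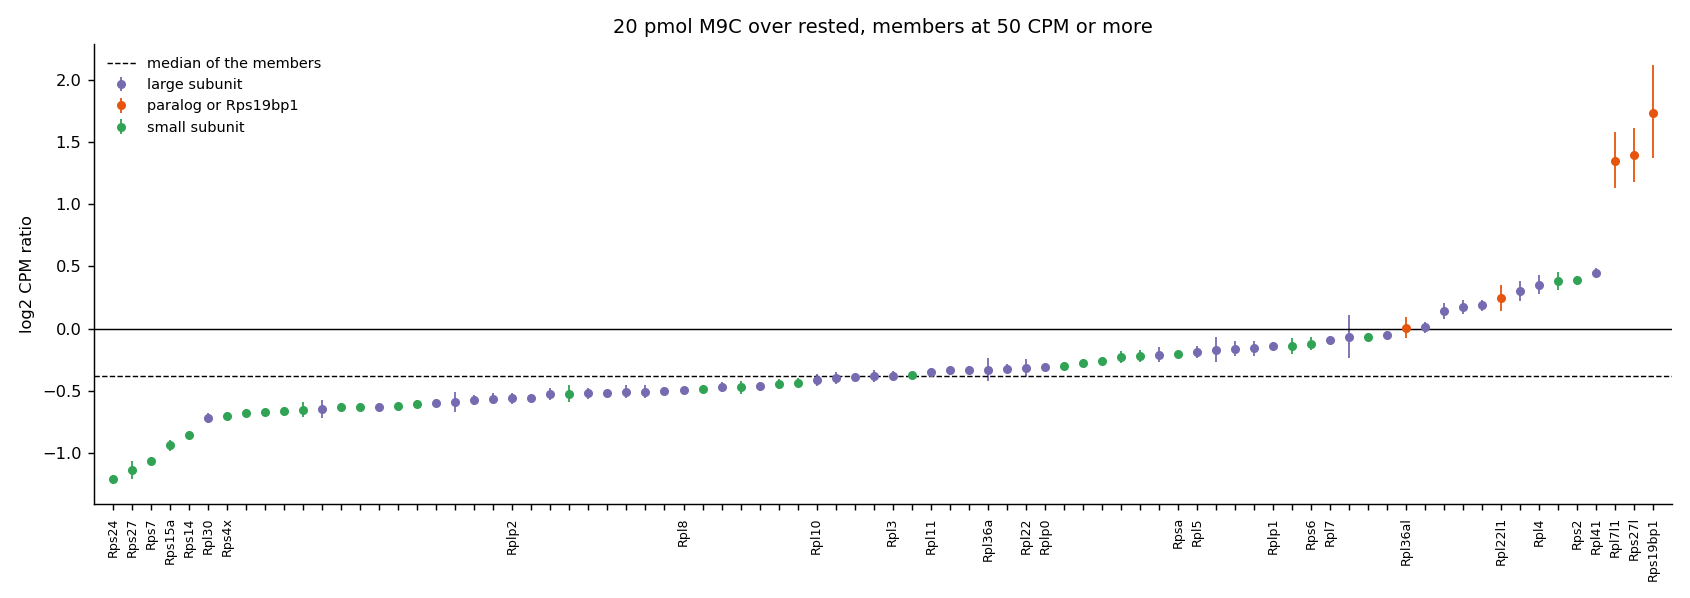
Log2 CPM ratio of 20 pmol M9C over rested cells for the 82 members at 50 CPM or more, sorted, with 95% counting intervals and coloured by class; genes described in the text are labelled. The dashed line is their median, -0.38. Small subunit members fill the lowest 5 places and 3 paralogs or related genes the highest 3.

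By their median, genes of small subunit proteins lay lower than those of large subunit proteins. The median log2 CPM ratio over rested cells was -0.49 over 31 small subunit members and -0.37 over 46 large subunit members at 20 pmol M9C, and -0.51 and -0.34 at 20 pmol L6F. At 20 pmol M9C, 20 of 31 small subunit members were lower and 2 higher, and 28 of 46 large subunit members were lower and 2 higher. Of all genes, 26.9% were lower and 51.5% higher. These counts alone do not separate the subunits. The UMIs of large subunit members were 1.21 times those of small subunit members at each M9C dose, 1.18 times at 80 pmol L6F and 1.19 times at 20 pmol L6F, against 1.10 times in rested cells. In rested cells with 500 to 1000 and 1000 to 2000 UMIs, the ratio was 1.10 and 1.08, and in the 7 rested cells with 4000 to 8000 UMIs it was 1.18.

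Of the small subunit, Rps24 (gene ENSMUSG00000025290) had the lowest ratio. It had 2668, 2706 and 2632 CPM at 0.2, 2 and 20 pmol M9C and 2704 and 2670 CPM at 80 and 20 pmol L6F, against 6109 CPM in rested cells. All 5 stimulated values lay within a narrow band well under the rested one, and the log2 CPM ratio at 20 pmol M9C was -1.21 (-1.25 to -1.18). Its UMIs per cell went the other way, at 17.6 in 20 pmol M9C cells and 5.77 in rested cells. With cells of 1000 or more genes, the log2 CPM ratio was -0.58. Mutations of RPS24 are known from human patients with Diamond-Blackfan anaemia, an inherited failure of red cell production.

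Rps27 (ENSMUSG00000090733), a zinc-binding protein of the small subunit, had 601, 607 and 579 CPM at 0.2, 2 and 20 pmol M9C and 585 and 586 CPM at 80 and 20 pmol L6F, against 1278 CPM in rested cells. The log2 CPM ratio at 20 pmol M9C was -1.14 (-1.21 to -1.07). Rps27rt (ENSMUSG00000050621), whose coding sequence matched that of Rps27 at 252 of 252 bases, had 22.5, 21.1 and 22.2 CPM at 0.2, 2 and 20 pmol M9C and 20.6 and 20.3 CPM at 80 and 20 pmol L6F, against 46.1 CPM in rested cells. Both genes had their highest CPM in rested cells. How the authors' counting treated reads that fit both is not given in the sources used here, so the split between this pair is uncertain.

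Rps7 (ENSMUSG00000061477), which is needed for small subunit assembly, had 3754, 3733 and 3677 CPM at 0.2, 2 and 20 pmol M9C and 3919 and 3900 CPM at 80 and 20 pmol L6F, against 7686 CPM in rested cells. Rps15a (ENSMUSG00000008683) had 1817, 1805 and 1805 CPM at 0.2, 2 and 20 pmol M9C and 1970 and 1920 CPM at 80 and 20 pmol L6F, against 3466 CPM in rested cells. Rps14 (ENSMUSG00000024608), whose human counterpart is lost in the 5q- form of myelodysplastic syndrome, had 3730, 3705 and 3633 CPM at 0.2, 2 and 20 pmol M9C and 3830 and 3836 CPM at 80 and 20 pmol L6F, against 6592 CPM in rested cells. For these 3 genes the log2 CPM ratios at 20 pmol M9C were -1.06, -0.94 and -0.86, and the L6F values lay slightly above the M9C values.

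Rps2 (ENSMUSG00000044533), which lines the entry of the mRNA channel, was among the 2 small subunit members that were higher. It had 6084, 6302 and 6220 CPM at 0.2, 2 and 20 pmol M9C and 6187 and 6108 CPM at 80 and 20 pmol L6F, against 4749 CPM in rested cells, a log2 CPM ratio of 0.39 (0.35 to 0.42) at 20 pmol M9C. In cells with 1000 to 3000 UMIs this ratio was -0.016, so the difference was nearly absent there. Per cell, Rps2 averaged 41.6 UMIs at 20 pmol M9C and 4.49 UMIs in rested cells.

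Rpsa (ENSMUSG00000032518), a small subunit protein also known as the laminin receptor, was the member with the most UMIs. It had 10166, 10424 and 10354 CPM at 0.2, 2 and 20 pmol M9C and 10907 and 10732 CPM at 80 and 20 pmol L6F, against 11947 CPM in rested cells. Its log2 CPM ratio at 20 pmol M9C was -0.21 (-0.23 to -0.18), which did not reach that threshold. Rps6, the substrate of the S6 kinases, had a ratio of -0.12 (-0.18 to -0.07).

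**Figure D4:**
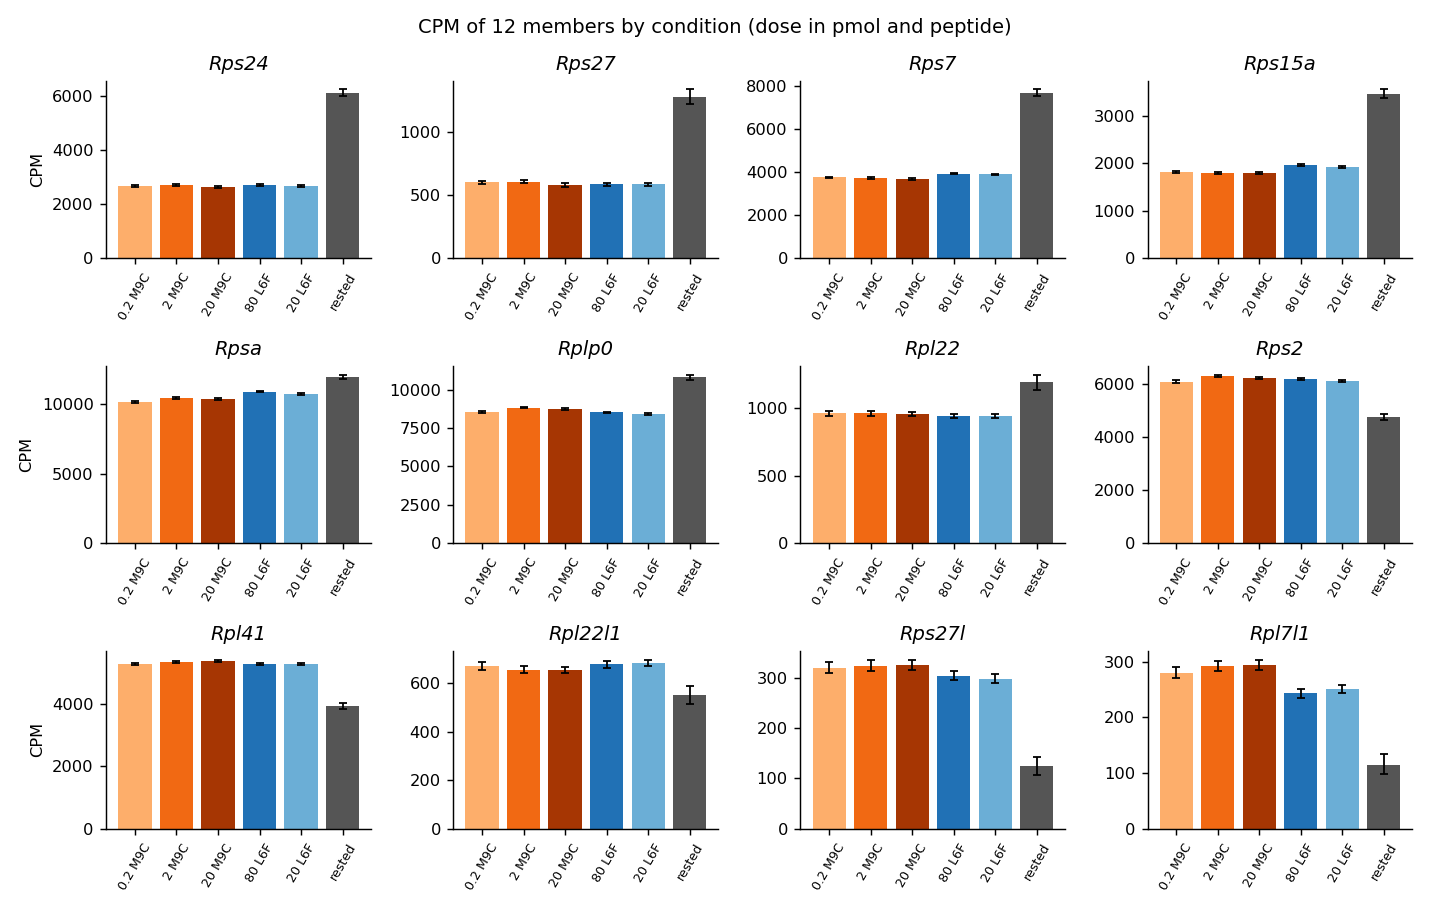
CPM of 12 named members in each condition as bars from 0, 1 panel per gene with its own scale, with 95% counting intervals. Rps24 lies at 2632 to 2706 CPM in stimulated conditions beside 6109 CPM in rested cells, and Rps27l at 298 to 326 CPM beside 124 CPM.

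In the large subunit, the 3 proteins of the P stalk, which recruits translation factors, had CPM below their rested levels. Rplp0 (ENSMUSG00000067274) had 8555, 8831 and 8739 CPM at 0.2, 2 and 20 pmol M9C and 8520 and 8412 CPM at 80 and 20 pmol L6F, against 10804 CPM in rested cells. At 20 pmol M9C the log2 CPM ratios of Rplp0, Rplp1 and Rplp2 were -0.31, -0.14 and -0.56, and Rplp2 alone of these 3 was past the threshold there. Over the 5 stimulated conditions, Rplp0 was lower past it in 3, Rplp1 in 0 and Rplp2 in 5. Rpl5 and Rpl11, which form the 5S particle and can bind Mdm2, the regulator of p53, had ratios of -0.19 (-0.24 to -0.14) and -0.35 (-0.38 to -0.31). Rpl3, Rpl8 and Rpl10, which lie around the site of peptide bond formation and the tRNAs, were all lower past the threshold at 20 pmol M9C, with ratios of -0.38, -0.50 and -0.41. Rpl8 and Rpl10 were so in all 5 stimulated conditions and Rpl3 in 3. Of 8 proteins at the exit tunnel of the growing chain, 4 were lower and 1, Rpl4, was higher at 20 pmol M9C, where 26.9% of all genes were lower and 51.5% higher.

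Rpl41 (ENSMUSG00000093674), the smallest ribosomal protein, had the highest ratio among large subunit members. It had 5306, 5359 and 5399 CPM at 0.2, 2 and 20 pmol M9C and 5305 and 5302 CPM at 80 and 20 pmol L6F, against 3957 CPM in rested cells. The log2 CPM ratio at 20 pmol M9C was 0.45 (0.41 to 0.49), and also 0.45 with cells of 1000 or more genes. It was 0.24 in cells with 1000 to 3000 UMIs and 0.21 with a top hashtag of 95% or more, both short of the threshold. Rpl4 had 1187, 1208 and 1189 CPM at 0.2, 2 and 20 pmol M9C and 1136 and 1147 CPM at 80 and 20 pmol L6F, against 930.3 CPM in rested cells.

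The 3 members with the highest ratios were not standard subunits of the ribosome. Rps27l (ENSMUSG00000036781), a p53-inducible paralog with 61.0% identity to Rps27 in the aligned coding sequence, had 320.3, 324 and 326 CPM at 0.2, 2 and 20 pmol M9C and 304 and 298 CPM at 80 and 20 pmol L6F, against 124 CPM in rested cells. Its log2 CPM ratio at 20 pmol M9C was 1.40 (1.18 to 1.62), opposite in sign to that of Rps27. Rpl7l1 (ENSMUSG00000063888), a relative of Rpl7 with 51.7% identity, had 279.8, 292 and 294 CPM at 0.2, 2 and 20 pmol M9C and 243 and 251 CPM at 80 and 20 pmol L6F, against 115 CPM in rested cells. Its ratio was 1.35 (1.13 to 1.58), beside -0.10 for Rpl7.

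Rps19bp1 (ENSMUSG00000051518) had 145, 143 and 140.5 CPM at 0.2, 2 and 20 pmol M9C and 113 and 117 CPM at 80 and 20 pmol L6F, against 42.1 CPM in rested cells, which rest on 63 UMIs. Its log2 CPM ratio at 20 pmol M9C was 1.74 (1.37 to 2.12). With cells of 1000 or more genes, the ratios of Rps19bp1, Rps27l and Rpl7l1 were 0.90, 0.48 and 0.47. Rpl22l1, the paralog of Rpl22, had a ratio of 0.25 (0.14 to 0.35) beside -0.31 (-0.39 to -0.24) for Rpl22, and Rpl36al had 0.01 (-0.08 to 0.09) beside -0.33 for Rpl36a, with which it shares 87.7% of its coding bases.

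Among the other members under 50 CPM, Rpl39l had 10.4, 5.74 and 6.79 CPM at 0.2, 2 and 20 pmol M9C and 8.76 and 6.30 CPM at 80 and 20 pmol L6F, against 4.01 CPM in rested cells, the last from 6 UMIs. Rpl3l, known from muscle, had 1 UMI in all assigned cells, and Rpl10l, known from testis, had none.

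Across members, the log2 CPM ratio at 20 pmol M9C had little relation to the length or composition of the transcript. Over the 82 members, which share the same libraries, Spearman's rho was 0.07 with coding length, -0.06 with the length of the 3′ UTR and -0.04 with GC content. With the rested CPM it was -0.44, but the rested CPM is also the denominator of the ratio.

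In the comparisons made between stimulated conditions, no member differed past the threshold in CPM. From the lowest to the highest of the 5 stimulated CPM values, the median member spanned 1.04-fold, and 79 of 82 members spanned less than 1.1-fold. The exceptions were Rps19bp1 at 1.28-fold, Rpl7l1 at 1.21-fold and Rpl10a at 1.14-fold. The span of Rps19bp1 ran from 80 pmol L6F to 0.2 pmol M9C, a pair that was not among the comparisons. At 20 over 2 pmol M9C, 0 members were past the threshold, where 0.428% of all genes were higher and 0.0988% lower. At 2 over 0.2 pmol M9C, 0 were past it (0.626% and 0.428%), and at 20 over 0.2 pmol M9C 0 were (1.28% and 0.785%). At 80 over 20 pmol L6F, 0 were past it (0.199% and 0.365%). With so few genes past the threshold among all genes at 50 CPM or more, a count of 0 among 82 members lies near the background.

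The peptides M9C and L6F were both given at 20 pmol, and there 0 members were past the threshold, where 4.26% of all genes were higher and 4.94% lower. The median log2 CPM ratio of 20 pmol M9C over 20 pmol L6F was -0.018 over members and 0.023 over all genes, with 28 members above 0 and 54 below. On UMIs per cell the member median was 0.049, with 73 members above 0 and 9 below, and 1 member, Rps19bp1, was higher past the threshold (6.62% of all genes). Rpl10a, a large subunit protein, was farthest below, with 3441 CPM at 20 pmol M9C and 3829 CPM at 20 pmol L6F, a log2 ratio of -0.15 (-0.17 to -0.14). Rps18 and Rps4x each had -0.11. Farthest above were Rps19bp1 at 0.27 (0.17 to 0.36), Rpl7l1 at 0.23 (0.16 to 0.29) and Rps27l at 0.13 (0.07 to 0.19). These intervals exclude 0, but without a second culture the spread between cultures is not known. At all 3 M9C doses, 40 of 82 members had a lower CPM than at both L6F doses, as 27.4% of all genes did, and 14 had a higher one, as 38.8% did, but the doses of the peptides differ. The gap between the nearest values ran from 0.0294% for Rps23 to 7.96% for Rpl10a among the 40. Among the 14 it ran from 0.0100% for Rpl41 to 20.2% for Rps19bp1. These counts took no interval into account, so the smallest gaps may be counting error.

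**Figure D5:**
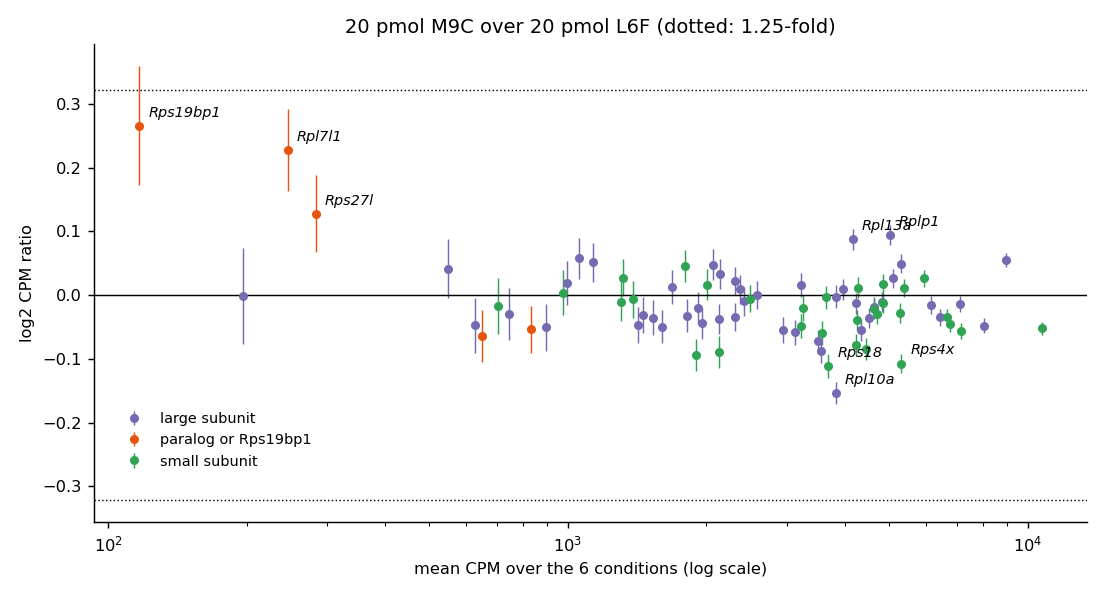
Log2 CPM ratio of 20 pmol M9C over 20 pmol L6F for the 82 members at 50 CPM or more, against their mean CPM over the 6 conditions on a log axis, with 95% counting intervals and coloured by class. Dotted lines mark the call threshold, which no member reaches, with Rpl10a lowest at -0.15 and Rps19bp1 highest at 0.27.

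Lists of other genes of translation were compared at 20 pmol M9C over rested cells, where 51.5% of all genes were higher and 26.9% lower. There, 2 of the 3 ribosomal proteins whose symbols the rule does not take were lower, Fau (log2 CPM ratio -0.74) and Rack1 (-0.41). Of 6 elongation factor genes, 3 were higher and 2 lower, which is near those shares. Eif5a, whose product helps ribosomes past difficult peptide bonds, had 3362, 3291 and 3226 CPM at 0.2, 2 and 20 pmol M9C and 2979 and 3116 CPM at 80 and 20 pmol L6F, against 1247 CPM in rested cells. Eef1a1, which brings tRNAs to the ribosome, had 3700, 3522 and 3458 CPM at 0.2, 2 and 20 pmol M9C and 4081 and 4065 CPM at 80 and 20 pmol L6F, against 5725 CPM in rested cells. Of 15 other transcripts known to begin with a TOP sequence, 8 were higher, near the share of all genes, and 2 lower, from Nap1l1 at 1.67 and Hnrnpa1 at 1.63 to Tpt1 at -1.05.

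Lists of genes that serve ribosomal proteins held 4 to 6 genes at this level, and their counts stand beside the same 51.5% of all genes higher and 26.9% lower. Of 6 chaperones and assembly partners at 50 CPM or more, 4 were higher and 0 lower, including Grwd1 at 1.72 and Heatr3 at 1.29. All 4 import receptors were higher, including Ipo5 at 1.78 and Ipo7 at 1.44. So were the 4 factors that bind idle ribosomes or recycle them, including Ifrd2 at 1.57 and Abce1 at 1.03. Of 6 regulators of TOP translation, 4 were higher and 0 lower, including Larp1b at 1.36. Eif4ebp1, an mTOR-controlled repressor of cap-dependent translation, had 278, 221 and 178 CPM at 0.2, 2 and 20 pmol M9C and 230.2 and 284 CPM at 80 and 20 pmol L6F, against 66.2 CPM in rested cells, so that the lower dose of each peptide had the higher level.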

How the data were processed

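The authors deposited 1 matrix of UMI counts over 13439 barcodes, with hashtag counts as extra rows. The submitters' processing notes name bcl2fastq, Cell Ranger 6.0.1 and the builds GRCm38 and mm10. Which annotation was counted, and what became of reads that fit several genes, is not given in the sources used here. A barcode was given the condition of its top hashtag where that had 20 or more counts and 80% or more of the hashtag counts; 1768 barcodes (13.2%) were left out. No doublet caller was run, so doublets within a condition remain, and barcodes with some counts of other hashtags were kept. A top hashtag of 95% or more was held by 22 of 1583 rested cells and 1247 to 2267 cells per stimulated condition. Whether rested barcodes held RNA from other cultures was not tested. Sums over the cells of a condition were expressed as CPM, with exact Poisson intervals, and ratios with exact Clopper-Pearson intervals at 95%. The 10 comparisons took genes that reached 50 CPM in one of their conditions; the floor was 3 counts. Members and lists were chosen with earlier results of these data known. Genes are named by rule: the 5 members of highest mean CPM, the 5 highest and 5 lowest ratios of 20 pmol M9C over rested cells, every paralog, the stalk, 5S and core members, the 3 farthest above and below the median between stimulated conditions, and the 2 largest ratios of every other list. Rps6, Rps4x, Rpl7, Rpl4, Rpl22, Eef1a1 and Tpt1 were also named after their values were seen where the rule did not take them. Some genes are not reported here. Scripts ran in Python 3.11.15 with numpy 2.4.6, scipy 1.17.1 and pandas 2.3.3, and in R 4.3.3 with Seurat 5.3.0 for an alternative hashtag call, and were tested on simulated data. Start-site positions and sequences came from RefSeq's GRCm38.p6 annotation. Coding sequences and transcript features came from GENCODE vM21.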

Additional observations from a re-analysis of the deposited data

Results flagged for a closer look

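The 5 features named as ribosomal protein pseudogenes, which the comparisons leave out, held 5157 UMIs and were detected in all 6 conditions. They summed to 76.2, 75 and 76.8 CPM at 0.2, 2 and 20 pmol M9C and to 73.4 and 76.9 CPM at 80 and 20 pmol L6F, against 96.3 CPM in rested cells. Most came from Rpl9-ps6, at 33.1 to 37.4 CPM in stimulated conditions against 51.5 CPM in rested cells, and Rpl10-ps3, at 27.3 to 28.6 CPM against 33.4 CPM. Whether these reads belong to Rpl9 and Rpl10 was not tested.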

How the results depend on the processing

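Every condition was 1 culture, so the values have counting intervals and no replicate error. No paired analysis was possible because no condition had a second culture. The lower CPM of the members in stimulated cells turned into a higher amount on UMIs per cell, and nearly disappeared where rested cells with 1000 or more genes were taken, which left 47 rested cells. Its median was larger in cells of 1000 to 3000 UMIs, while the shares lay closer together in cells of 2000 to 4000 UMIs. A top hashtag of 95% or more left 1247 to 2267 cells per stimulated condition but only 22 rested cells. In those rested cells Rps27l and Rps19bp1 had no more than 3 UMIs each, so no ratio was taken for them. The part of depth in the difference was not tested. Adding the -ps features to their members changed no value listed here by more than its interval. Of the named members past the threshold, 19 changed sign on UMIs per cell, Rps28 and Rpl13a among them also with 1000 or more genes, and Rps2 changed sign in both depth windows. Members short of the threshold, such as Rplp0 and Rpl5, also changed sign under both of the first settings. For the other changes the cause was not tested. Counts of members under the settings below stand without the share of all genes.

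With HTODemux singlets of 500 or more genes and at most 10% mitochondrial UMIs, the share of UMIs was 25.8% at 2 pmol M9C, 25.5% at 20 pmol M9C and 32.4% in rested cells. The median log2 ratio over rested cells was -0.34 at 0.2 pmol M9C, -0.32 at 2 pmol M9C, -0.33 at 20 pmol M9C, -0.29 at 80 pmol L6F and -0.31 at 20 pmol L6F. With the hashtag rule and the same filter on cells, the share of UMIs was 25.4% at 0.2 pmol M9C, 25.8% at 2 pmol M9C, 25.5% at 20 pmol M9C, 26% at 80 pmol L6F and 33.6% in rested cells. With cells of 1000 or more genes, the share of UMIs was 25.4% at 0.2 pmol M9C, 25.8% at 2 pmol M9C, 25.5% at 20 pmol M9C, 25.8% at 20 pmol L6F and 26.6% in rested cells. Over rested cells the median was -0.076 at 0.2 pmol M9C, -0.050 at 2 pmol M9C, -0.062 at 20 pmol M9C, -0.025 at 80 pmol L6F and -0.029 at 20 pmol L6F. Members lower past the threshold than in rested cells came to 6 at 0.2 pmol M9C and 20 pmol M9C, 4 at 2 pmol M9C and 5 at 80 pmol L6F and 20 pmol L6F. There, for 20 pmol M9C over rested cells the log2 ratio was 0.086 for Rps28 and 0.068 for Rpl13a. With a top hashtag of 95% or more, the share of UMIs was 25.3% at 0.2 pmol M9C, 26% at 80 pmol L6F, 25.8% at 20 pmol L6F and 32% in rested cells. Against rested cells, the median log2 ratio was -0.29 at 0.2 pmol M9C, -0.28 at 2 pmol M9C, -0.29 at 20 pmol M9C, -0.27 at 80 pmol L6F and -0.29 at 20 pmol L6F. Members past the threshold and higher than in rested cells numbered 3 at 0.2 pmol M9C, 2 pmol M9C, 20 pmol M9C and 20 pmol L6F. In cells of 1000 to 3000 UMIs, the share of UMIs was 23.1% at 0.2 pmol M9C, 23.6% at 2 pmol M9C, 23.9% at 20 pmol M9C, 25.1% at 80 pmol L6F, 24.9% at 20 pmol L6F and 35% in rested cells. In log2 terms, the median over rested cells was -0.57 at 0.2 pmol M9C, -0.55 at 2 pmol M9C, -0.48 at 20 pmol M9C, -0.46 at 80 pmol L6F and -0.46 at 20 pmol L6F. Between stimulated conditions the median log2 ratio was 0.032 for 20 pmol M9C over 2 pmol M9C, 0.036 for 20 pmol M9C over 0.2 pmol M9C and -0.048 for 20 pmol M9C over 20 pmol L6F. The count higher past the threshold than in rested cells was 4 at 2 pmol M9C and 20 pmol M9C and 3 at 80 pmol L6F and 20 pmol L6F. Past the threshold, the count higher was 1 for 20 pmol M9C over 2 pmol M9C, 20 pmol M9C over 0.2 pmol M9C and 20 pmol M9C over 20 pmol L6F. There, for 20 pmol M9C over rested cells the log2 ratio was -0.016 for Rps2.

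Without cells above 3 times the median UMIs of their condition, the share of UMIs was 34% in rested cells. With every cell given the same weight, the share of UMIs was 24.8% at 0.2 pmol M9C, 25% at 2 pmol M9C, 24.6% at 20 pmol M9C, 25.7% at 80 pmol L6F and 25.4% at 20 pmol L6F. Relative to rested cells the median log2 ratio was -0.43 at 20 pmol M9C. Among stimulated conditions the median was -0.045 for 20 pmol M9C over 20 pmol L6F. On UMIs per cell, medians over rested cells were 2.50 at 0.2 pmol M9C, 2.49 at 2 pmol M9C, 2.44 at 20 pmol M9C, 2.37 at 80 pmol L6F and 2.40 at 20 pmol L6F. Medians between stimulated conditions were -0.051 for 20 pmol M9C over 2 pmol M9C, -0.016 for 2 pmol M9C over 0.2 pmol M9C, -0.062 for 20 pmol M9C over 0.2 pmol M9C, -0.037 for 80 pmol L6F over 20 pmol L6F and 0.049 for 20 pmol M9C over 20 pmol L6F. Members lower past the threshold than in rested cells came to 0 at all 5 stimulated conditions. Members past the threshold and higher than in rested cells numbered 82 at all 5 stimulated conditions. The count higher past the threshold was 1 for 20 pmol M9C over 20 pmol L6F. There, for 20 pmol M9C over rested cells the log2 ratio was 2.33 for Rpl8, 2.30 for Rpl13, 1.61 for Rps24, 1.68 for Rps27, 1.76 for Rps7, 1.88 for Rps15a, 1.96 for Rps14, 2.26 for Rplp2, 2.47 for Rpl11, 2.44 for Rpl3, 2.41 for Rpl10, 2.29 for Rpl23a, 2.49 for Rpl36a, 2.30 for Rps28, 2.49 for Rpl13a, 2.35 for Rps29, 2.36 for Rpl10a, 2.20 for Rps18 and 2.12 for Rps4x. With median-of-ratios scaling, set over rested cells, the median log2 ratio was -0.71 at 0.2 pmol M9C, -0.68 at 2 pmol M9C, -0.70 at 20 pmol M9C, -0.63 at 80 pmol L6F and -0.64 at 20 pmol L6F. Between stimulated conditions the median log2 ratio was -0.039 for 20 pmol M9C over 20 pmol L6F. Past the threshold, the count lower than in rested cells was 66 at 80 pmol L6F and 20 pmol L6F. Members higher past the threshold than in rested cells came to 3 at all 5 stimulated conditions.

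With totals that leave out mitochondrial genes, Malat1 and Gm42418, the share of UMIs was 26% at 0.2 pmol M9C, 26.4% at 2 pmol M9C, 26.1% at 20 pmol M9C, 26.7% at 80 pmol L6F, 26.5% at 20 pmol L6F and 35.5% in rested cells. The median log2 ratio over rested cells was -0.44 at 0.2 pmol M9C, -0.41 at 2 pmol M9C, -0.44 at 20 pmol M9C, -0.39 at 80 pmol L6F and -0.40 at 20 pmol L6F. Without cells of 3 or more marker UMIs of another type, the share of UMIs was 33.8% in rested cells. In cells with a Cd8a or Cd8b1 UMI, the share of UMIs was 25.4% at 0.2 pmol M9C, 25.8% at 2 pmol M9C, 25.5% at 20 pmol M9C, 26% at 80 pmol L6F, 25.8% at 20 pmol L6F and 34.1% in rested cells. With members at 10 CPM or more, members past the threshold and lower numbered 1 for 2 pmol M9C over 0.2 pmol M9C and 20 pmol M9C over 0.2 pmol M9C. With no filter on low values, the count lower past the threshold was 1 for 2 pmol M9C over 0.2 pmol M9C and 20 pmol M9C over 0.2 pmol M9C. Past the threshold, the count higher was 1 for 80 pmol L6F over 20 pmol L6F. Cells of 1000 to below 2000 UMIs, a window chosen after the data were seen, numbered 18, 25 and 31 at 0.2, 2 and 20 pmol M9C. There were 52 at each L6F dose and 418 rested ones. In this window, the share of UMIs was 19.2% at 0.2 pmol M9C, 20.6% at 2 pmol M9C, 23.6% at 20 pmol M9C, 25.2% at 80 pmol L6F, 24.6% at 20 pmol L6F and 35.9% in rested cells. Over rested cells the median was -0.82 at 0.2 pmol M9C, -0.72 at 2 pmol M9C, -0.53 at 20 pmol M9C, -0.50 at 80 pmol L6F and -0.51 at 20 pmol L6F. Among stimulated conditions the median was 0.16 for 20 pmol M9C over 2 pmol M9C, 0.11 for 2 pmol M9C over 0.2 pmol M9C, 0.33 for 20 pmol M9C over 0.2 pmol M9C and -0.047 for 20 pmol M9C over 20 pmol L6F. Members lower past the threshold came to 1 for 2 pmol M9C over 0.2 pmol M9C and 4 for 20 pmol M9C over 20 pmol L6F. Members past the threshold and higher than in rested cells numbered 0 at 0.2 pmol M9C and 80 pmol L6F, 1 at 2 pmol M9C and 20 pmol L6F and 4 at 20 pmol M9C. The count higher past the threshold was 12 for 20 pmol M9C over 2 pmol M9C, 4 for 2 pmol M9C over 0.2 pmol M9C, 20 for 20 pmol M9C over 0.2 pmol M9C and 1 for 20 pmol M9C over 20 pmol L6F. With so few cells, these counts do not show an effect of dose, since the intervals leave out the spread between cells. The share of all genes past the threshold was not computed in this window. There, for 20 pmol M9C over rested cells the log2 ratio was -0.19 for Rps2.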
